A study of Mus musculus with 24 samples.

Results

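The bone morphogenetic protein (BMP) genes described here comprise 10 genes of the mouse retinal pigment epithelium (RPE), chosen by gene symbol from the 54532 genes of the count table. They are the ligands Bmp4, Bmp2, Bmp7 and Gdf10, the antagonist Nog, and the target genes Id1, Id2, Id3, Smad6 and Smad7. Bmp4 and Nog were chosen because their levels had been seen to change through the day in these libraries, so their own time courses are given as values without a test. The question put to them was whether the target genes follow.

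RPE was taken from wild-type mice of the 129S1/SvlmJ strain, whose background has Rpe65 Leu450, and was collected 0, 1, 3, 5, 6, 9, 15 and 16 h after light onset, which was at clock hour 7. There were 3 mice, each with 1 library, at each of the 8 times. All mice were raised under a 12 h light phase, so that 15 and 16 h fell in the night and 1 to 9 h in the day. No treatment or second genotype was part of the design, and the times span less than 1 day.

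BMP ligands are secreted dimers that bind pairs of serine/threonine kinase receptors, which phosphorylate SMAD1, SMAD5 and SMAD9. With SMAD4 these enter the nucleus and raise the transcription of Id genes and of the inhibitory Smad6 and Smad7, which feed back on the receptors. Noggin binds BMP ligands outside the cell and keeps them from their receptors. In the eye, BMP4 and BMP7 take part in forming the optic vesicle and in giving the RPE its identity, and the adult RPE and the choroid beneath it are a source of BMP ligands.

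Promoter sequence was searched for 5 of the 10 genes, and the remaining genes were not searched. It is shown for the 4 of these 5 that held a searched motif. Among them are the ligand that was asked about and the target with the widest range over the day. Each run covers 250 bases before to 50 bases after the RefSeq start of the gene on GRCm38.p6, written 5′ to 3′ on the gene's own strand. Capitals mark matches to CACGTG (an E-box, the type of site bound by the clock activators), GGCGCC (a type of site bound by SMAD1 and SMAD5) and TGACG (the core of a cyclic AMP response element, here on the opposite strand as CGTCA), each searched on both strands.
Bmp4: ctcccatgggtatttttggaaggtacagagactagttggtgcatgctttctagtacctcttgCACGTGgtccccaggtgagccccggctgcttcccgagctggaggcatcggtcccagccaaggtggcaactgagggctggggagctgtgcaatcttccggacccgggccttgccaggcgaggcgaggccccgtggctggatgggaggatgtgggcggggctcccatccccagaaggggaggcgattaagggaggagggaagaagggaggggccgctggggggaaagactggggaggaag
Gdf10: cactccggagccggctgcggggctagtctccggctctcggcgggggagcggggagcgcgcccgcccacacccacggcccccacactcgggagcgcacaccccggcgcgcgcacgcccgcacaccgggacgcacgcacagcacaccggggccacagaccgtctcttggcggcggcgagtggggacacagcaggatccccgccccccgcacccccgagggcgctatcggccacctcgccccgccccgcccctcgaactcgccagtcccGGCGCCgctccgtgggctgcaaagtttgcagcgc
Id2: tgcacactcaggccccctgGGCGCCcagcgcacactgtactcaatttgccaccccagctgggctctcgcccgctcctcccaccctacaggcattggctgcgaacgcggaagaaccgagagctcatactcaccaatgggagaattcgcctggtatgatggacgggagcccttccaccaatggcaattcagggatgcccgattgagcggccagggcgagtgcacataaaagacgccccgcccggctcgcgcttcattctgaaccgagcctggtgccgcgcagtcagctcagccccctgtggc
Id3: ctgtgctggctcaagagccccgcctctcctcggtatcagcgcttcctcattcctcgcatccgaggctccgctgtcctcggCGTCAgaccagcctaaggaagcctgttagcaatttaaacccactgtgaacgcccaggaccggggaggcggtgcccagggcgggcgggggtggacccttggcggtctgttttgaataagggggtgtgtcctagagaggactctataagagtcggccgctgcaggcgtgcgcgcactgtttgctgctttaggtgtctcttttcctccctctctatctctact
The Bmp4 window lies at chr14:46390620-46390919 on the minus strand and held 1 CACGTG, a motif found in 7.15% of all 32851 promoter windows of this length. The Gdf10 window, at chr14:33923337-33923636 on the plus strand, and the Id2 window, at chr12:25096043-25096342 on the minus strand, each held 1 GGCGCC, present in 11.9% of windows. The Id3 window, at chr4:136143572-136143871 on the plus strand, held 1 TGACG, present in 20.8% of windows. The Id2 and Id3 windows lie wholly inside the spans of these genes in the count table, downstream of the starts given there. The Smad6 window, at chr9:64022010-64022309 on the minus strand, held none of the 3. No window held more than 1 match, so no matches overlapped, and a match describes letters and not a bound site.

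All 10 genes passed the filter on low counts in the 24 libraries, in which 18065 genes were tested. Libraries held 14073440 to 17492470 counts, and the level of a gene is given as CPM, its count scaled to library size after trimmed-mean normalisation. Replicate 3 of 6 h and replicate 3 of 15 h stood apart: on the first principal component, with 38.2% of the variance, they lay at 49.3 and 199.9, against -25.1 to -3.5 in the other 22 libraries. Their ribosomal protein genes took 2.3% and 5.02% of the counts, against 1.12% to 1.62% in the 22. Results are therefore given for the 24 libraries, for the 22 without them, or for both. A call in either set need not hold in the other. All 8 markers of the labelled tissue were detected, with Rpe65 at 5703 to 9699 TPM, a scale that also corrects for transcript length, in the 22 libraries, while rod markers summed to 288 to 3755 CPM and choroid endothelial markers to 383 to 1029 CPM, so that RNA of neighbouring tissue was present. In such bulk samples fewer cells of a type and less RNA per cell cannot be told apart.

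Per length, Nog and Bmp4 were the most abundant of the 10 transcripts, with medians over the 22 libraries of 411 and 401 TPM. Id3 followed at 200.1 TPM and Bmp7 at 179 TPM. Id2 (99 TPM), Id1 (79 TPM) and Bmp2 (76.2 TPM) were intermediate. Smad6 (34.6 TPM), Smad7 (21.3 TPM) and Gdf10 (17.9 TPM) were lowest. The ranges of Nog (227 to 658 TPM) and Bmp4 (237 to 580.1 TPM) overlapped almost entirely, so their order is not resolved.

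Bmp4 (ENSMUSG00000021835, chromosome 14, 46383520 to 46390669, minus strand) encodes the ligand with the widest range among the 3 classical BMP ligands here. It was at 179, 209 and 204 CPM at 0 h, at 301, 294 and 368 CPM at 1 h and at 259, 230.2 and 268 CPM at 3 h. It reached 437, 397 and 393 CPM at 5 h, 397, 400.5 and 377 CPM at 6 h and 281, 369 and 359.9 CPM at 9 h. In the night it was at 233, 222 and 127 CPM at 15 h and at 309, 271 and 297 CPM at 16 h. The libraries of 5 and 6 h were thus all above every library of the other 6 times, and the 127 CPM came from the replicate of 15 h that stood apart. The highest time mean, at 5 h, was 2.07 times the lowest, at 0 h, in the 22 libraries, and a fitted 24 h wave had its peak at 8.1 ± 0.8 h (jackknife SE) with a peak-to-trough difference of 0.83 ± 0.22 on the log2 scale. The course was not a single smooth wave, since all 3 libraries of 1 h were above all 3 of 3 h. A gene on the opposite strand, Gm15217, shares 3.96% of the exonic bases of Bmp4, and the strand setting of the counting is not given in the sources used here.

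Nog (ENSMUSG00000048616, chromosome 11, 89300638 to 89302332, minus strand), which encodes the antagonist noggin, had its highest time mean at 6 h. At night it stayed above its levels of 0, 1 and 3 h. Since the Bmp4 libraries of 5 and 6 h overlapped, a later maximum of Nog is not resolved. It was at 139, 124 and 156 CPM at 0 h, at 133, 194 and 185 CPM at 1 h and at 163, 160.3 and 182 CPM at 3 h. It was at 332, 217 and 217 CPM at 5 h, at 349.7, 378 and 438 CPM at 6 h and at 237, 277 and 267 CPM at 9 h. In the night it remained at 259, 287 and 256 CPM at 15 h and at 340.2, 285 and 333 CPM at 16 h. Every library from 5 h on was above every library of 0, 1 and 3 h. The fitted wave had its peak at 11.2 ± 0.7 h and a peak-to-trough difference of 1.23 ± 0.26 on the log2 scale in the 22 libraries. That peak lies between 9 and 15 h, where no time was sampled. Here too the course was not a single smooth wave, since all 3 libraries of 6 h were above all 3 of 9 h and all 3 of 16 h.

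**Figure D1:**
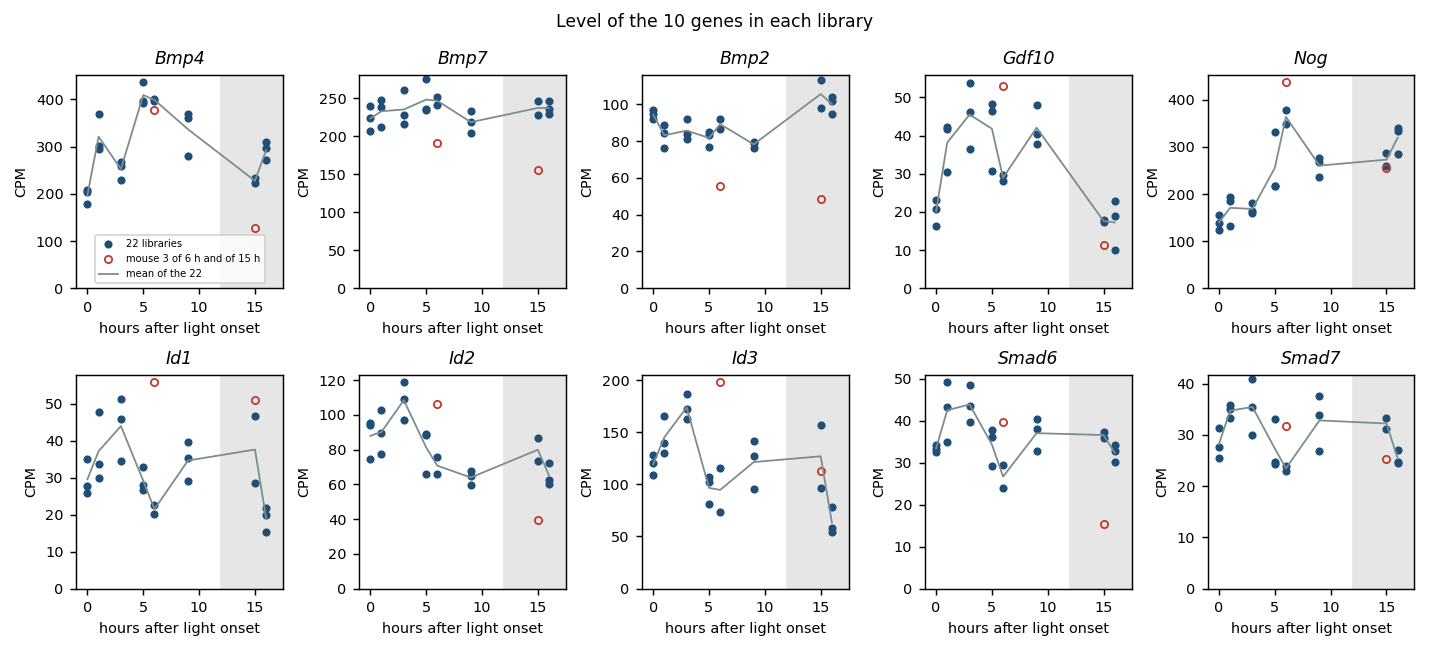
Level of each of the 10 genes in CPM (vertical axis, from 0) against hours after light onset, 1 point per mouse, with the line joining the time means of the 22 libraries, the 2 libraries that stood apart as open points, and the dark phase shaded. Bmp4 was highest at 5 h and Nog at 6 h, Gdf10 was low at 0, 15 and 16 h, and the 5 target genes were highest at 3 h.

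The ratio of the ligand to its antagonist was lower at night than in most of the day. The Bmp4 count divided by the Nog count was 0.901, 0.772 and 0.495 at 15 h and 0.908, 0.95 and 0.891 at 16 h, so that all 6 night libraries were below 1. From 0 to 9 h it lay between 0.861 and 2.27 with a median of 1.39, and 1 of these 18 libraries was below 1, the replicate of 6 h that stood apart. The highest time mean was 1.93 ± 0.378 at 1 h (SD, n = 3). Per length of transcript the ratio was 0.373 to 0.716 in the night and 0.649 to 1.71 from 0 to 9 h, with a median of 1.05, so that the side of 1 depends on the scale. The ratio is built from the 2 genes that were chosen for their change, so it carries no test.

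**Figure D2:**
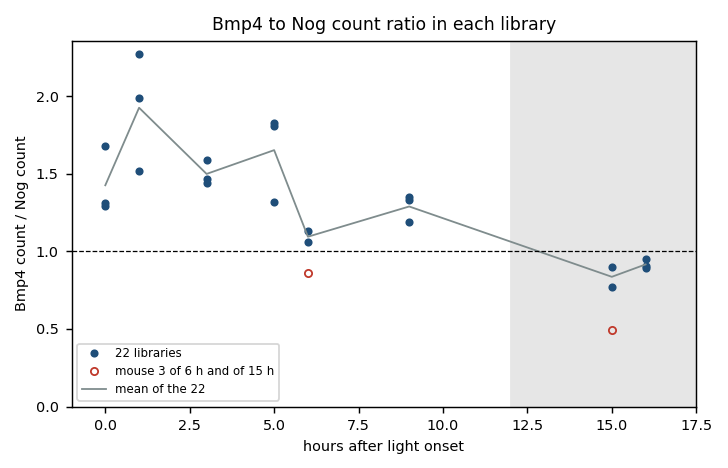
Bmp4 count divided by Nog count in each library (vertical axis, no unit) against hours after light onset, with the dashed line at 1, open points for the 2 libraries that stood apart and the dark phase shaded. All 6 libraries of 15 and 16 h lie below 1, and 1 of the 18 libraries of 0 to 9 h does.

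Among the 8 other genes, Gdf10 (ENSMUSG00000021943, chromosome 14, 33923587 to 33937983, plus strand), a divergent BMP family ligand also called BMP3b, had the clearest day-night difference. In the night it was at 17.9, 17.3 and 11.2 CPM at 15 h and at 22.8, 19 and 9.91 CPM at 16 h. In the day it was at 41.8, 42.2 and 30.5 CPM at 1 h, 36.4, 53.8 and 46.3 CPM at 3 h, 30.7, 46.4 and 48.3 CPM at 5 h, 29.7, 28.2 and 53 CPM at 6 h and 48, 37.7 and 40.5 CPM at 9 h. The 6 night libraries (9.91 to 22.8 CPM) did not overlap the 15 day libraries (28.2 to 53.8 CPM), and the 0 h libraries, at 23.2, 20.8 and 16.3 CPM, lay with the night. The share of all genes without such overlap is not given here, so how rare it is cannot be judged. In edgeR's quasi-likelihood test with Benjamini-Hochberg adjustment over all genes, Gdf10 was lower at night than in the day by a log2 difference of -1.32 ± 0.18 (SE, adjusted p = 0.000412), and of -1.16 ± 0.18 in the 22 libraries (adjusted p = 0.000902). It was the only one of the 8 genes called for night against day in the 24 libraries, where 1.39% of all genes tested were called and 0.509% were called lower.

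Gdf10 was also the only one of the 8 that varied over the 8 times in the 24 libraries (highest over lowest time mean 1.55 on the log2 scale, adjusted p = 0.0119), beside 1.08% of all genes. It had a 24 h component of 1.60 ± 0.28 (peak-to-trough log2, jackknife SE) with the peak at 5.8 ± 0.6 h (adjusted p = 0.00132), again the only call among the 8, beside 1.67% of all genes. Without 15 and 16 h the component of Gdf10 was 1.55 and was not called (adjusted p = 0.326), nor was any other of the 8 genes, beside 1.72% of all genes. Against 0 h, Gdf10 rose in the 22 libraries by 1.06 ± 0.25 at 5 h (adjusted p = 0.0326) and by 1.07 ± 0.25 at 9 h (adjusted p = 0.0173). In the 24 libraries the same differences, 1.06 and 1.06, had adjusted p = 0.222 and 0.0971.

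Bmp2 (ENSMUSG00000027358, chromosome 2, 133552159 to 133562885, plus strand), a ligand closely related to BMP4, ran the opposite way with a small amplitude. It was at 113, 98.2 and 48.4 CPM at 15 h and at 102, 94.5 and 104 CPM at 16 h. In the day it was lowest at 9 h, with 79.4, 79 and 76.4 CPM, and at 0 h it was at 94.8, 96.7 and 91.9 CPM. The values of 48.4 CPM at 15 h and 55.7 CPM at 6 h came from the 2 libraries that stood apart. Without them, the night libraries (94.5 to 113 CPM) did not overlap the day libraries (76.1 to 92.1 CPM), a separation whose share over all genes is likewise not given. In these 22 libraries Bmp2 was higher at night by 0.29 ± 0.05 (adjusted p = 0.000267), where 4.63% of all genes were called. With the 2 libraries that stood apart the difference was 0.20 ± 0.12 and was not called (adjusted p = 0.404). In the 22 libraries Bmp2 also had a 24 h component of 0.35 ± 0.08 (adjusted p = 0.00618), beside 6.12% of all genes. Its fitted peak, at 18.1 ± 0.8 h, lies after 16 h, the last time sampled. In the same libraries Bmp2 was lower at 9 h than at 0 h by a log2 difference of -0.27 ± 0.07 (adjusted p = 0.0253), beside 8.1% of all genes. In the 24 libraries neither was called, with a component of 0.34 (adjusted p = 0.412) and a difference of -0.27 (adjusted p = 0.783).

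Bmp7 (ENSMUSG00000008999, chromosome 2, 172868012 to 172940321, minus strand), the third classical ligand, was the steadiest of the 10 genes. Its time means lay between 210.3 and 248 CPM, and its span over the day was 0.24 on the log2 scale (adjusted p = 0.894) and 0.18 in the 22 libraries (adjusted p = 0.557). The night minus day difference in the 22 libraries was 0.00, with a 95% interval of -0.11 to 0.11.

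The target genes had their highest time mean at 3 h and their lowest at different hours. Id3 (ENSMUSG00000007872, chromosome 4, 136143497 to 136145755, plus strand) and Id1 (ENSMUSG00000042745, chromosome 2, 152736251 to 152737410, plus strand) encode inhibitors of DNA-binding helix-loop-helix factors and are direct SMAD targets in many cell types. Id3 was at 109, 121 and 128 CPM at 0 h, 166, 130.1 and 139.8 CPM at 1 h and 187, 172 and 163 CPM at 3 h. It was at 80.9, 107 and 102 CPM at 5 h, 73.4, 116 and 198 CPM at 6 h and 142, 127 and 95.3 CPM at 9 h. At 15 h it was at 157, 97 and 113 CPM and at 16 h at 78.4, 54 and 57.9 CPM. The libraries of 16 h were all below those of 0 h, and those of 5 h, when Bmp4 was highest, were all below those of 0, 1 and 3 h. The 198 CPM at 6 h belonged to the replicate that stood apart.

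Id1 was at 25.8, 27.8 and 35.1 CPM at 0 h, 47.8, 30 and 33.7 CPM at 1 h and 46, 51.4 and 34.5 CPM at 3 h. It was at 27.9, 26.7 and 32.8 CPM at 5 h, 20.3, 22.6 and 55.8 CPM at 6 h and 39.7, 35.2 and 29 CPM at 9 h. At 15 h it was at 46.7, 28.5 and 51 CPM and at 16 h at 21.9, 19.8 and 15.4 CPM. Libraries of most neighbouring times overlapped, and in the order of the time means of the 22 libraries only 5 h and 6 h were separated.

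Id2 (ENSMUSG00000020644, chromosome 12, 25093799 to 25097140, minus strand), the third gene of the family, had its lowest time mean at 9 h. It averaged 87.9 ± 11.7 CPM at 0 h, 108 ± 10.8 CPM at 3 h, 81.2 ± 13.2 CPM at 5 h, 63.9 ± 3.99 CPM at 9 h and 65.1 ± 6.29 CPM at 16 h (SD, n = 3 each). The 3 libraries of 9 h, at 67.4, 64.7 and 59.6 CPM, lay below the 3 of 0 h, at 95.3, 93.9 and 74.4 CPM.

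Smad6 (ENSMUSG00000036867, chromosome 9, 63953076 to 64022059, minus strand) and Smad7 (ENSMUSG00000025880, chromosome 18, 75367529 to 75395935, plus strand) encode the inhibitory SMADs, Smad6 acting mainly on BMP receptors and Smad7 also on those for TGF-beta. Smad6 averaged 33.3 ± 0.876 CPM at 0 h, 43.9 ± 4.45 CPM at 3 h, 34.3 ± 4.46 CPM at 5 h and 32.3 ± 2.06 CPM at 16 h (SD, n = 3 each). Smad7 averaged 28.2 ± 3.04 CPM at 0 h, 35.4 ± 5.41 CPM at 3 h, 27.4 ± 4.9 CPM at 5 h and 25.4 ± 1.5 CPM at 16 h (SD, n = 3 each).

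All 5 targets had their highest time mean at 3 h, in the 24 and in the 22 libraries, an hour at which the mean of Bmp4 was the sixth highest of the 8. At 5 h, the hour of the highest Bmp4 mean, 4 of the 5 targets were below their 0 h mean in the fit and 1 above, with a median log2 difference of -0.04. The whole range over the day was 2.74-fold for Id3, 2.31-fold for Id1, 1.69-fold for Id2, 1.64-fold for Smad6 and 1.51-fold for Smad7 in the 22 libraries.

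**Figure D3:**
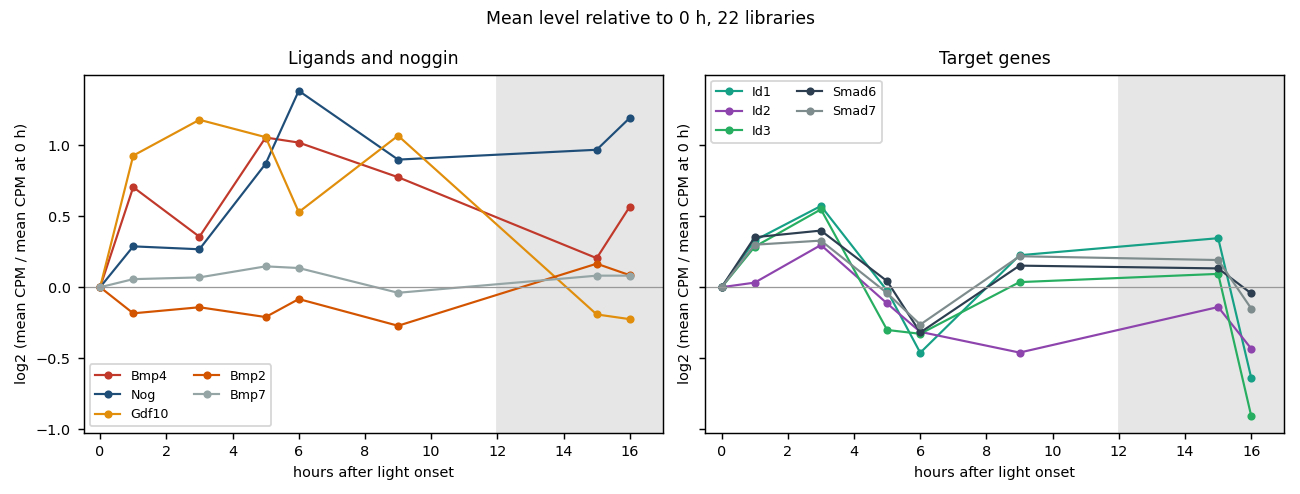
Time means of the 22 libraries as log2 of the ratio to the 0 h mean (vertical axis) against hours after light onset, for the ligands and noggin on the left and the 5 target genes on the right, with the dark phase shaded. Bmp4 reaches its highest point at 5 h and Nog at 6 h, whereas all 5 target genes are highest at 3 h and Id1 and Id3 are lowest at 16 h.

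Whether the target genes varied over the day depended on the 2 libraries that stood apart. In the 24 libraries none of the 5 was called over the 8 times by edgeR's quasi-likelihood test: 4 of them had an unadjusted p under 0.05, and DESeq2, which called 10.7% of all genes, called 2, Id2 and Id3. In the 22 libraries all 5 were called, Id2 with adjusted p = 0.00342, Smad6 with 0.00635, Id3 with 0.00811, Id1 with 0.0147 and Smad7 with 0.017. Bmp2 (0.00283) and Gdf10 (0.00319) were called as well, so that 7 of the 8 genes passed, beside 15.6% of all 18388 genes tested in those libraries. The median span of the 8 genes was 0.74 on the log2 scale in the 22 libraries, against 0.50 over all genes tested. In the 24 libraries it was 0.66, against 0.67 over all genes tested, so the wider span was not seen there. Of the 5 targets, Id2 alone had a 24 h component in the 22 libraries (0.59 ± 0.14 with its peak at 0.1 ± 0.9 h, adjusted p = 0.0173), so that with Gdf10 and Bmp2 3 of the 8 genes were called, beside 6.12% of all genes. None of the targets was called for night against day in either set, with 2 of 5 at an unadjusted p under 0.05 in each set and Id3 called by DESeq2 (3.6% of all genes). The Id3 difference was -0.57 ± 0.16 in the 24 libraries (adjusted p = 0.0803) and -0.46 ± 0.14 in the 22 (adjusted p = 0.0869).

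The 7 later times were each compared with the same 3 libraries of 0 h. In the 24 libraries none of the 8 genes was called at any time, with at most 2 of the 8 at an unadjusted p under 0.05 and DESeq2 calling 1 at 5 h (0.769% of all genes) and 1 at 9 h (1.99%). Of all genes, edgeR called 0.0111% at 1 h, 0% at 3 h, 0.111% at 5 h, 0.166% at 6 h, 0.747% at 9 h, 0.41% at 15 h and 0.116% at 16 h. In the 22 libraries Id3 was lower at 16 h than at 0 h by a log2 difference of -0.91 ± 0.22 (adjusted p = 0.0448), beside 2.18% of all genes. Id2 was lower at 9 h by -0.45 ± 0.13 (adjusted p = 0.0342), one of 3 calls among the 8 at that hour beside 8.1% of all genes. At 5 h the call for Gdf10 stood beside 2.9% of all genes. At 3 h all 5 targets were above 0 h with a median of 0.40 in the 22 libraries, but none passed, although each had an unadjusted p under 0.05, as did 1897 of all 18388 genes, and 0.299% of all genes passed.

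The question of whether targets follow Bmp4 was put to each mouse by a slope of each gene on the log2 CPM of Bmp4 in the same library. A slope of 1 would be a proportional change, and a delayed response was not tested. In the 22 libraries the slopes of all 5 targets were below 0. They were -0.38 (95% interval -0.97 to 0.20) for Id3 and -0.34 (-0.87 to 0.20) for Id1. Id2 had -0.28 (-0.61 to 0.04), Smad7 -0.19 (-0.47 to 0.10) and Smad6 -0.16 (-0.44 to 0.12). Each interval included 0 and ended short of 1. This model holds no mean per time and takes the mice of a time as independent. None of the 8 genes was called in the 22 libraries, with 1 of the 8, Bmp2, at an unadjusted p under 0.05 and a slope of -0.19 ± 0.08 (adjusted p = 0.195), while 3.64% of all genes were called.

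In the 24 libraries the target slopes lay on both sides of 0, between -0.31 for Id1 and 0.16 for Smad6, with the highest upper bound at 0.49, and none was called. Gdf10 was called there with a slope of 0.82 ± 0.28 (adjusted p = 0.0471), beside 16.8% of all genes. That call ended without replicate 3 of 15 h (slope 0.65, adjusted p = 0.371), and it ended without any one of 11 other libraries. With a mean per time in the model, the Gdf10 slope was -0.08 ± 0.44 in the 24 libraries and -1.30 ± 0.53 in the 22. In that model Smad6 had 0.70 (95% interval 0.03 to 1.38) and Id2 0.62 (0.00 to 1.24) in the 24 libraries, and -0.43 (-1.02 to 0.16) and -0.27 (-0.95 to 0.41) in the 22. Smad7 had 0.05, Id3 0.00 and Id1 -0.60 in the 24 libraries, and -0.51, -0.14 and -0.46 in the 22. A slope of 1 lay within the intervals of Smad6 and Id2 in the 24 libraries. It also lay within that of Id3 in the 22 (-1.33 to 1.06). The upper bounds of Id1 were 0.27 in the 24 and 0.71 in the 22, and those of Smad7 0.55 and 0.13. None of the 5 was called in either set, beside 42.9% of all genes in the 24 libraries and 0% in the 22. Nog, whose change was part of the choice, had a slope of 0.49 ± 0.20 in the 24 libraries and 0.76 ± 0.24 in the 22.

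**Figure D4:**
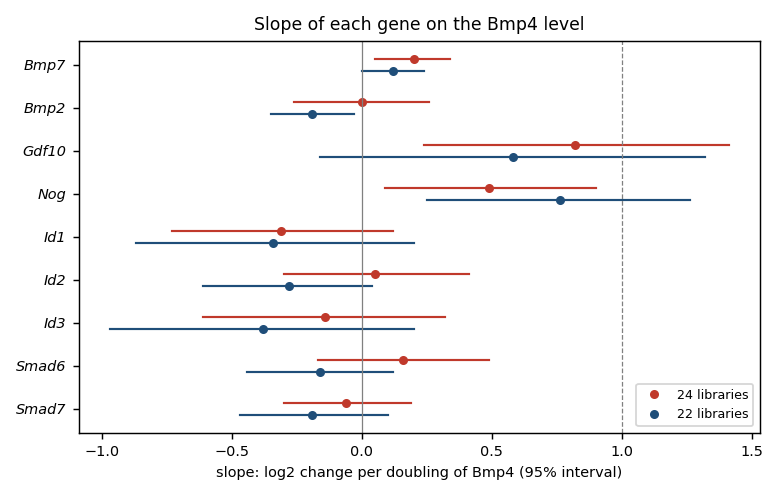
Slope of each gene on Bmp4 (horizontal axis, log2 change per doubling of Bmp4) with 95% intervals, in the 24 and in the 22 libraries, with lines at 0 and at 1. The 5 target genes lie at or below 0.16 with no upper bound above 0.49, and those of the 22 libraries are all below 0.

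A slope on the log2 ratio of Bmp4 to Nog, added after the data had been seen, gave positive values for all 5 targets in the 22 libraries. The slopes were 0.57 (95% interval 0.10 to 1.04) for Id3, 0.45 (0.01 to 0.89) for Id1, 0.39 (0.14 to 0.65) for Id2, 0.30 (0.08 to 0.51) for Smad6 and 0.22 (-0.02 to 0.46) for Smad7. None of the 8 genes was called after adjustment over all genes, of which 0.359% were, and the adjusted p of the 5 targets lay between 0.206 for Id2 and 0.557 for Smad7. In the 24 libraries Smad6 (0.41 ± 0.11, adjusted p = 0.00709), Id2 (0.41 ± 0.12, adjusted p = 0.0123) and Gdf10 (0.79 ± 0.24, adjusted p = 0.0166) were called, 3 of the 8 beside 26.5% of all genes. The calls in the 24 libraries thus ended without the 2 libraries that stood apart. On Bmp4 alone the slopes of the 5 targets were all below 0 in the 22 libraries. With Nog, the denominator of the ratio, their log2 CPM had correlations of -0.74 (Id2) to -0.51 (Smad7). No fit on the ratio held a mean per time or the level of endothelial markers.

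Across the 22 libraries Id1, Id3, Smad6 and Smad7 had correlations of 0.72 to 0.89 with each other and of at most 0.54 with a ligand, the highest being that of Id1 with Gdf10. These correlations of log2 CPM are descriptions over 22 points that share libraries and times. Id1 and Id3 had Pearson's r = 0.89 (Spearman's rho 0.88), Id1 and Smad7 0.85 (0.88), and Smad6 and Smad7 0.85 (0.86). Within times, that is after removing the time means, these were 0.71, 0.70 and 0.63. Id2 stood further off, with r between 0.40 (Smad7) and 0.69 (Id3). Against Bmp4 the 5 targets had r between -0.36 and -0.24, and against Nog between -0.74 (Id2) and -0.51 (Smad7). Bmp4 and Nog had r = 0.58, and Bmp2 and Gdf10 r = -0.83 with -0.38 within times.

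The targets also moved with the choroid endothelium, whose cells are known to express Id and inhibitory Smad genes. The 12 endothelial markers, all detected, summed to a mean of 822 CPM at 9 h and 743 CPM at 3 h, the highest hours, and to 456 CPM at 16 h and 419 CPM at 6 h, the lowest, in the 22 libraries. Over these, r with the median endothelial level was 0.84 for Smad7 (rho 0.87), 0.76 for Id1 (0.87), 0.72 for Smad6 (0.76), 0.60 for Id3 (0.68) and 0.27 for Id2 (0.30). It was -0.29 for Bmp4 and -0.53 for Nog. In the 22 libraries 6 of the 12 markers themselves varied over the 8 times, beside 15.6% of all genes. Over the 24 libraries edgeR called none, with 5 at an unadjusted p under 0.05, and DESeq2 called 2. The summed mean of the 10 fibroblast and mural cell markers was highest at 3 h (2183 CPM) and lowest at 6 h (1789 CPM). That of the 8 RPE markers was lowest at 3 h (32450.2 CPM) and highest at 6 h (42401 CPM). The part of the fibroblast, mural cell and RPE markers in the levels of the targets was not tested.

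With the endothelial level as a covariate in the 22 libraries, a fit added after the data had been seen, 3 of the 8 genes remained called over the 8 times, beside 8% of all genes. These were Bmp2 (adjusted p = 0.0115), Gdf10 (0.0117) and Id2 (0.0158). The calls of Id3 (adjusted p = 0.0967), Smad6 (0.145), Id1 (0.146) and Smad7 (0.306) ended. The fitted spans were 1.33 instead of 1.45 on the log2 scale for Id3, 0.83 instead of 1.21 for Id1, 0.47 instead of 0.71 for Smad6 and 0.28 instead of 0.59 for Smad7, while that of Id2 was 0.77 beside 0.76. Gdf10 kept its night difference under this fit (-1.22 ± 0.19, adjusted p = 0.0018), as did Bmp2 (0.29 ± 0.05, adjusted p = 0.000972), beside 3.83% of all genes. In these bulk libraries transcript changes in the RPE and changes in the endothelial share cannot be told apart for Id1, Id3, Smad6 and Smad7. For Gdf10, Bmp2 and Id2 the cell type that changed is not resolved either, since markers of other cell types were not in the fit.

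**Figure D5:**
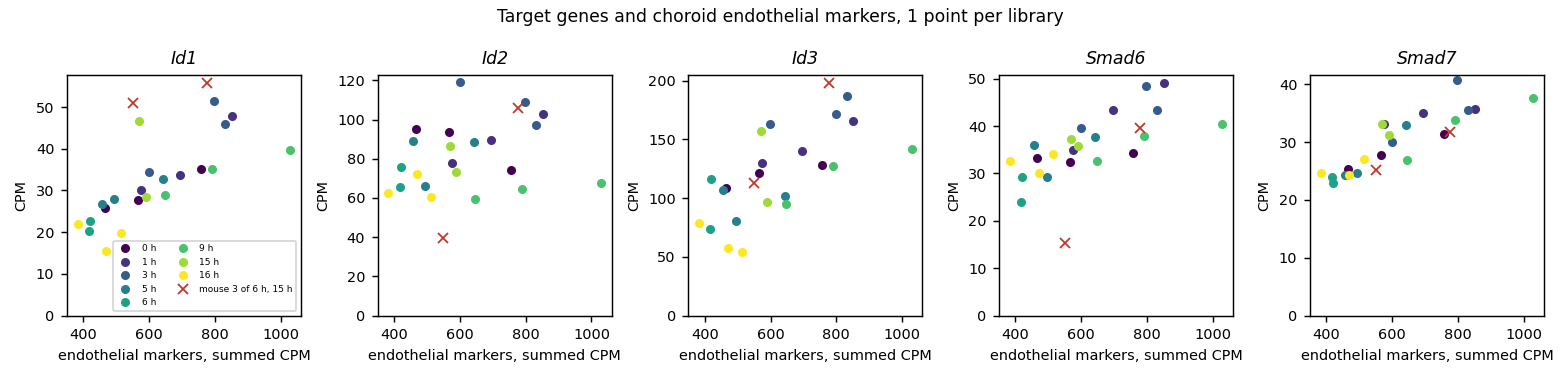
CPM of each target gene (vertical axes, from 0) against the summed CPM of 12 choroid endothelial markers (horizontal axes), 1 point per library coloured by time, with crosses for the 2 libraries that stood apart. Smad7, Id1 and Smad6 follow the markers most closely and Id2 least, with r = 0.84, 0.76, 0.72 and 0.27 over 22 libraries between log2 CPM and the median log2 level of the markers, a summary other than the plotted sum.

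The wider pathway was read from 5 lists of 53 genes, of which 41 passed the filter on low counts. In the 24 libraries none of the 41 was called over the 8 times, for the 24 h component or for night against day, with 8, 11 and 11 at an unadjusted p under 0.05 and 5, 3 and 4 called by DESeq2, which called 10.7%, 4.22% and 3.6% of all genes. In the 22 libraries 12 were called over the 8 times, 4 for the 24 h component and 5 for night against day, 2 of these higher and 3 lower, beside 15.6%, 6.12% and 4.63% of all genes. None of the 10 receptors and co-receptors was called in either set for any of these or for the slope on Bmp4, with at most 2 at an unadjusted p under 0.05. The median span over the 8 times of the 41 genes was 0.81 on the log2 scale in the 22 libraries, against 0.50 over all genes tested. In the 24 libraries it was 0.72, against 0.67.

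Of the 7 further target genes tested, 2 were called over the 8 times in the 22 libraries, beside 15.6% of all genes. Some feedback genes were called as well. Atoh8, a helix-loop-helix factor and BMP target, averaged 14.3 CPM at 3 h and 5.5 CPM at 16 h, and varied over the 8 times in the 22 libraries (span 1.37, adjusted p = 0.00722). It was lower at night by a log2 difference of -0.81 ± 0.17 (adjusted p = 0.00604). Hey1, a Notch and BMP target (span 1.14, adjusted p = 0.00421), Bambi, a decoy receptor induced by BMP (0.99, 0.00557), and Smad9, a receptor-regulated SMAD (0.85, 0.0219), also varied over time. Like Atoh8 they were highest at 3 h and lowest at 16 h, as was Hes1, which was not called (span 0.45, adjusted p = 0.111). Not all further target genes ran this way: at 16 h, 5 of the 7 were below 0 h in the 22 libraries and 2 above. With the endothelial covariate the calls over time ended for Atoh8 (span 1.26, adjusted p = 0.075), Hey1 (0.88, 0.0908), Bambi (0.85, 0.0792) and Smad9 (0.85, 0.0656), while Atoh8 kept its night difference (-0.77 ± 0.18, adjusted p = 0.0205). Atoh8 was the only named pathway gene called on the ratio of Bmp4 to Nog in the 22 libraries (slope 0.96 ± 0.18, adjusted p = 0.0117), beside 0.359% of all genes. In the 24 libraries its slope was 0.32 ± 0.18 and not called (adjusted p = 0.19). Fstl1, Smurf1, Smad9, Hey1 and Fst were called there, beside 26.5% of all genes. On Bmp4 with a mean per time, Atoh8 had a slope of -1.06 ± 0.37 in the 24 (adjusted p = 0.0279, beside 42.9% of all genes) and -0.85 ± 0.59 in the 22 (adjusted p = 0.816).

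Antagonists other than noggin took several courses, and 7 of the 14 tested were called over the 8 times in the 22 libraries, beside 15.6% of all genes. Sostdc1, a secreted BMP and Wnt antagonist, was highest at light onset, at 402, 318 and 343 CPM, and lowest at 9 h, at 200.3, 230.3 and 242 CPM (span 0.65, adjusted p = 0.000593 in the 22 libraries).

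Crim1, a membrane protein that binds BMP ligands, had time means of 1375 CPM at 1 h and 1924 CPM at 6 h in the 22 libraries (span 0.49, adjusted p = 0.00099). Its slope on Bmp4 was 0.44 ± 0.15 in the 24 libraries (adjusted p = 0.0436), where 16.8% of all genes were called, and 0.29 ± 0.10 in the 22 (adjusted p = 0.0998). Of the 14 antagonists tested, 2 were called for this slope in the 24 libraries, 1 higher and 1 lower. In the 22 libraries 1 was called, lower, beside 3.64% of all genes, and 11 of the 14 slopes were below 0. Fstl1, a follistatin-like protein, was highest at 3 h and lowest at 16 h (span 0.67, adjusted p = 0.000606) and lower at night by a log2 difference of -0.23 ± 0.06 (adjusted p = 0.0187). Nbl1 (span 0.67, adjusted p = 0.00557) and Chrdl1 (1.46, 0.0213), both secreted antagonists, also varied over the 8 times. Fst, which encodes follistatin and was at only 0.579 to 2.94 CPM in the 22 libraries, had a 24 h component of 1.28 ± 0.29 (adjusted p = 0.04). Of the other ligands, Bmp6 varied over time by 0.26 (adjusted p = 0.0434) and Bmp15, at only 0.801 to 3.32 CPM, was lower at night by a log2 difference of -0.82 ± 0.23 (adjusted p = 0.0362), all in the 22 libraries. Smurf1, a ubiquitin ligase for SMAD1 and SMAD5, varied by 0.38 (adjusted p = 0.0489). With the endothelial covariate in the 22 libraries the calls over time ended for Nbl1 (adjusted p = 0.079), Bmp6 (0.0981) and Smurf1 (0.285). Those of Sostdc1 (0.00113), Fstl1 (0.00184), Chrdl1 (0.025) and Crim1 (0.0395) remained.

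Genes whose levels were most like that of Bmp4 over the 22 libraries were Etv5, an ETS transcription factor (r = 0.90), Vegfa, a vascular growth factor (0.89), Cspg5, a chondroitin sulfate proteoglycan (0.89), Wnk4, a kinase of ion transport (0.88), and Ewsr1, an RNA-binding protein (0.88), among the 11997 genes that averaged 5 CPM or more. Most like Nog were Wfikkn2, a secreted protein that binds myostatin (0.90), Vit, a matrix protein (0.88), B4galt1, a galactosyltransferase (0.87), Sema3c, a secreted semaphorin (0.87), and Tnfrsf10b, a death receptor (0.86). None of the 8 other BMP genes was among these. The correlations are a description over 22 points that share library and time, and they were selected as the highest of many.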

How the data were processed

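RNA of mouse RPE was sequenced from 24 mice, 3 at each of 8 times. The deposited file has 1 column of raw read counts for each library and the authors' gene length in bases, used here for TPM. Reads had been aligned with STAR to mm10 and counted with HTSeq, per the submitters' processing notes; their versions, the annotation and the strand setting are not given in the sources used here. TMM scaling was computed from these counts.

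Genes were filtered with filterByExpr (minimum count 10, 99.92% of counts kept) and tested with edgeR 4.0.16 in R 4.3.3 by the quasi-likelihood F test, with Benjamini-Hochberg adjustment over all genes and adjusted p under 0.05 as the threshold. The fits were a mean per time, a 24 h cosine and sine, and a slope on log2 CPM of Bmp4 (prior count 2). Alternatives used DESeq2 1.42.0, limma-voom (limma 3.58.1), other scaling, no filter, a replicate block, an endothelial covariate, and fits without single libraries, without 0 h, or without 15 and 16 h. The procedure was tested on simulated data.

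The genes and lists were chosen with earlier results of these data known. Named were all 10 members, each gene of the 5 pathway lists called for time, the 24 h component, night against day or the slope on Bmp4 in 24 or 22 libraries, and the 5 genes most correlated with Bmp4 and with Nog. A gene of these lists that the rule names is not reported here. Positions are those of mm10, checked against GENCODE vM21, in which all 34 named genes were found. Replicate numbers are not known to pair the mice. Deviations from the time means had a median correlation of 0.02 between libraries of the same number, against -0.01 otherwise. Those of the same number ranged from -0.32 to 0.53, and 17 of their 84 pairs were over 0.1. Such a median cannot exclude a pairing at some of the times.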

Additional observations from a re-analysis of the deposited data

Results flagged for a closer look

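Among the 6 night libraries, replicate 3 of 15 h was the lowest by a wide gap for 4 of the 10 genes. The gap to the next library, as a share of the whole range of log2 CPM, was 0.83 for Bmp7, 0.79 for Bmp2, 0.76 for Smad6 and 0.63 for Bmp4, above Dixon's 95% critical value for 6 samples. Such a gap arises by chance in about 1 of 20 groups. The same library had 5.02% of its counts in ribosomal protein genes, against 1.12% to 1.62% in 22 others, and its part in these low values was not tested.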

How the results depend on the processing

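The number of the 8 genes called depended above all on the 2 libraries that stood apart. Without both, it was 7 over the 8 times in place of 1, 3 for the 24 h component in place of 1, 2 for night against day in place of 1, 0 for the slope on Bmp4 in place of 1, 0 for the slope on the ratio in place of 3, and 1 at 5 h, 3 at 9 h and 1 at 16 h against 0 h in place of 0. Over all genes the same step gave 2870 calls over the 8 times in place of 195, 1126 for the 24 h component in place of 302, 852 for night against day in place of 251 and 670 for the slope in place of 3032. DESeq2 called 3 of the 8 genes over the 8 times, 2 for the 24 h component, 2 for night against day, 2 for the slope and 1 each at 5 h and 9 h, with 1930, 763, 651 and 3468 calls over all genes in the 4 main comparisons. For the 24 h component, limma-voom and DESeq2's size factors each gave 2 of the 8, beside 1.69% and 1.71% of all genes. Leaving out 15 and 16 h gave 0, beside 1.72%. For the slope, DESeq2's size factors and the unfiltered table each gave 0, beside 17.6% and 9.91% of all genes. A mean per time gave 2, Bmp2 (0.97) and Bmp7 (0.65), beside 42.9% of all genes (0 in the 22 libraries, beside 0%). With the endothelial covariate in the 22 libraries, 3 were called over the 8 times, beside 8% of all genes. That fit also called 3 for the 24 h component (8.94% of all genes) and 2 for night against day (3.83%). Against 0 h it called 1 at 5 h (3.06%) and 2 at 9 h (5.64%). It was added after seeing the data, as were the ratio and the slope with a mean per time in the 22. The causes of these shifts were not tested.

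Leaving out single libraries gave 1 to 3 of the 8 over the 8 times (more than 1 without replicate 1 or 3 of 6 h or any of 15 h), 1 to 3 for the 24 h component (more than 1 without replicate 1 or 3 of 15 h, 2 of 1 h or 3 of 6 h), 1 to 3 for night against day (more than 1 without replicate 1 or 3 of 15 h or 1 of 6 h), 0 to 2 for the slope (0 without replicate 2 of 0 h, 1 of 1 h, 2 or 3 of 5 h, 3 of 9 h, 1 or 3 of 15 h or 2 of 16 h, and 2 without replicate 1 of 3 h), and 0 to 1 at 9 h, the last through replicate 3 of 15 h. Gdf10 kept its calls over the 8 times and for night against day in all 24 of these fits. Over all genes they gave 118 to 1215, 203 to 789, 123 to 1172 and 478 to 4533 calls in the 4 main comparisons.

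The direction turned round for these values. The slope on Bmp4 of Id2 was -0.28 in the 22 libraries, -0.27 there with a mean per time and -0.22 without replicate 3 of 15 h. That of Smad6 was -0.16, -0.43 and -0.14 in the same settings. Over all single libraries left out, these slopes ranged from -0.22 to 0.13 for Id2 and from -0.14 to 0.24 for Smad6, and the night difference of Bmp7 from -0.13 to 0.03. With a mean per time the slope was -0.08 for Gdf10 (-1.30 in the 22) and 0.05 for Smad7. The night difference of Bmp7 was 0.02 with the endothelial covariate in the 22 libraries and 0.03 without replicate 3 of 15 h, and that of Smad7 was 0.01 with the covariate in the 22. On the ratio, the 22 libraries gave -0.25 for Bmp2, -0.01 for Bmp7 and 0.45 for Id1.

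The replicate number was also used as a block, which shares only a number and no known pairing. With this block the slope on Bmp4 called 0 of the 8 genes (Gdf10 0.83, adjusted p = 0.062), beside 13.3% of all genes. The same block gave 1 for the 24 h component (1.47% of all genes), 1 for night against day (1.25%) and 1 over the 8 times (0.792%). With 3 mice at a time, a p that misses the threshold does not show that levels were equal.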
